A study of Mus musculus with 6 samples.

Results

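The genes described here are 9 that govern how a cut axon breaks down or survives and how it keeps its nicotinamide adenine dinucleotide (NAD): Sarm1, Nmnat1, Nmnat2, Nmnat3, Nampt, Map3k12, Map3k13, Mapk8 and Mycbp2. They were chosen by symbol, out of 52999 symbols that the files list, and all 9 passed the filter on low counts, as did 18396 symbols in all. The samples were 3 libraries from male and 3 from female C57BL/6 mice aged 6 to 8 weeks, each library a pool of nerves from 2 mice. In every animal of both sexes the left sciatic nerve had been cut at mid-thigh (axotomy), and the proximal stump, which stays joined to the dorsal root ganglia and the spinal cord, was taken 24 h later for sequencing of polyadenylated RNA. The design asks how gene expression of the injured nerve differs by sex. Nerves of sham-operated mice are not analysed here and nothing below measures a response to injury, and p-values cover the spread between pools.

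SARM1 is an enzyme that breaks down NAD and executes the self-destruction of injured axons, and it is held in check while NMNAT2, a short-lived NAD synthase carried from the cell body into the axon, turns the NAD precursor NMN into NAD. NMN is made by NAMPT, NMNAT1 and NMNAT3 are the nuclear and the mitochondrial NAD synthases, and MYCBP2 (also known as PHR1) is a ubiquitin ligase that promotes the loss of NMNAT2. The kinases DLK (Map3k12) and LZK (Map3k13) sense axon injury and signal through the JNK family, of which JNK1 is the product of Mapk8. A severed nerve stump holds axons, Schwann cells, connective tissue, vessels and immune cells but no nerve cell bodies, so that most of its messenger RNA comes from cells other than neurons. In such bulk tissue, fewer cells of a type and less RNA per cell cannot be told apart.

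The libraries held 51936195 to 69848769 estimated counts in males and 49158283 to 64802091 in females. The sex-specific genes followed the labels in all 6 libraries, but male 1 held 2.86 CPM (counts scaled to the normalised library size) of Xist and female 3 held 2.21 CPM of Ddx3y and 2.34 CPM of Eif2s3y, so results are also given without these libraries where that changed a call. Markers of myelinating Schwann cells, the glia of this nerve, summed to 56126 to 65984 CPM in males and 24467 to 33234 CPM in females. Summed over 12 markers listed for central neurons, the level was 23.6 to 50.9 CPM in males and 7.75 to 12.4 CPM in females. The list holds Grin1 and Gria2, whose messenger RNA the study reports as increased in male nerves. That report rests on the same series and is not separate evidence of which cells held these transcripts, which was not tested. Of these 12 markers 9 passed the test higher in males, and none of the listed markers was at 0 in every library.

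Of the 9 genes, only Nmnat2 differed between the sexes past the threshold, and it was higher in males. The threshold was an adjusted p under 0.1 in edgeR's quasi-likelihood test with Benjamini-Hochberg adjustment over all 18396 genes tested, of which 975 (5.30%) passed, 706 (3.84%) higher and 269 (1.46%) lower in males. For 4 of the 9 genes (Nmnat2, Map3k12, Map3k13 and Mapk8) the CPM of the 3 male and the 3 female libraries did not overlap, which was the case for 25.5% of all genes tested. The median log2 fold change, male over female, was -0.04 over the 9 genes and -0.03 over all genes tested. Leaving out a library changed the number of all genes that passed. It was 1 of 18996 without female 1, 325 of 18969 without female 2 and 2609 of 19043 without female 3. It was 643 of 19024 without male 1, 758 of 18842 without male 2 and 7 of 18903 without male 3. A list count of 0 without female 1 or male 3 therefore says little about that list.

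**Figure D1:**
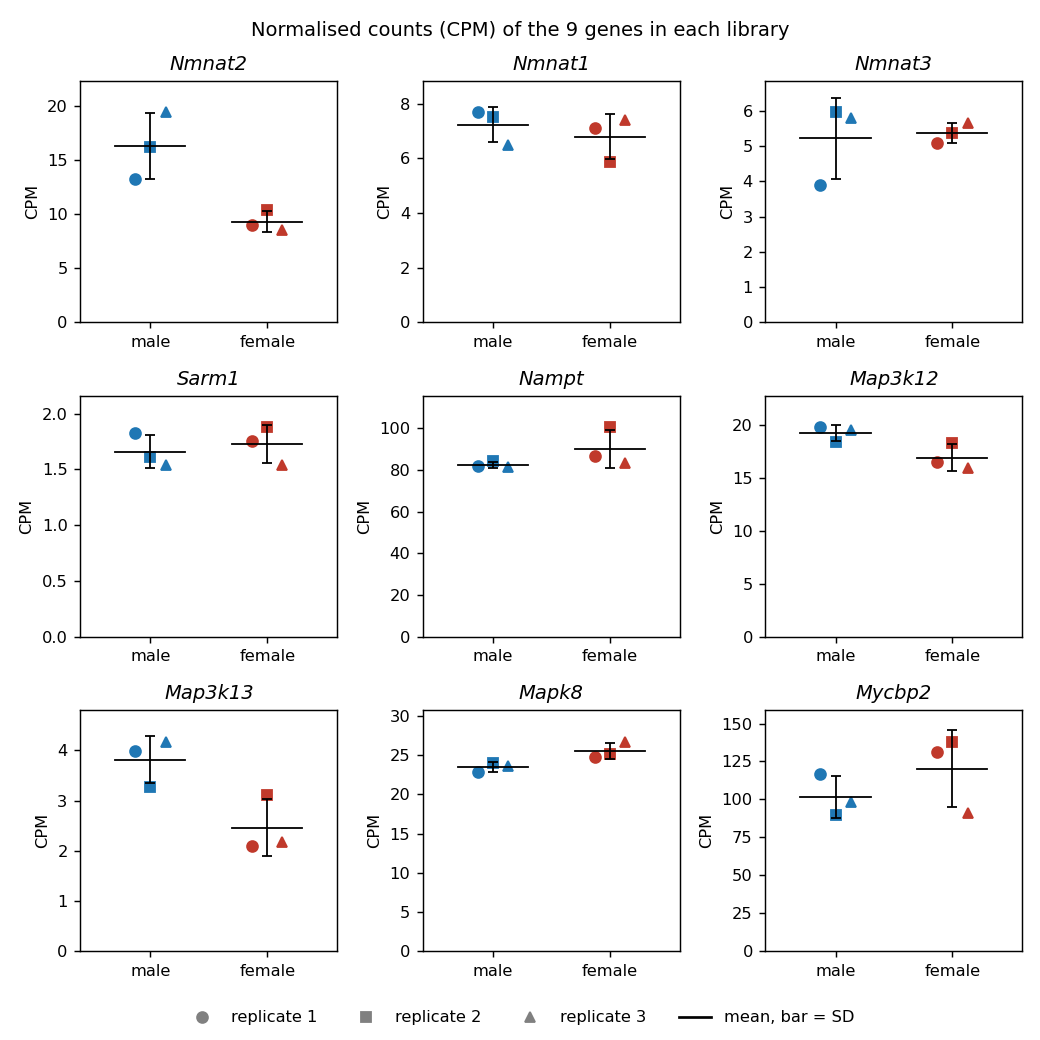
CPM of each of the 9 genes in every male (blue, left) and female (red, right) library, each panel on its own axis from 0, with the mean as a line and the SD as a bar (n = 3 libraries per sex). The male libraries lie above all female libraries for Nmnat2, Map3k13 and Map3k12 and below them for Mapk8, and the sexes overlap for the other 5 genes.

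**Figure D2:**
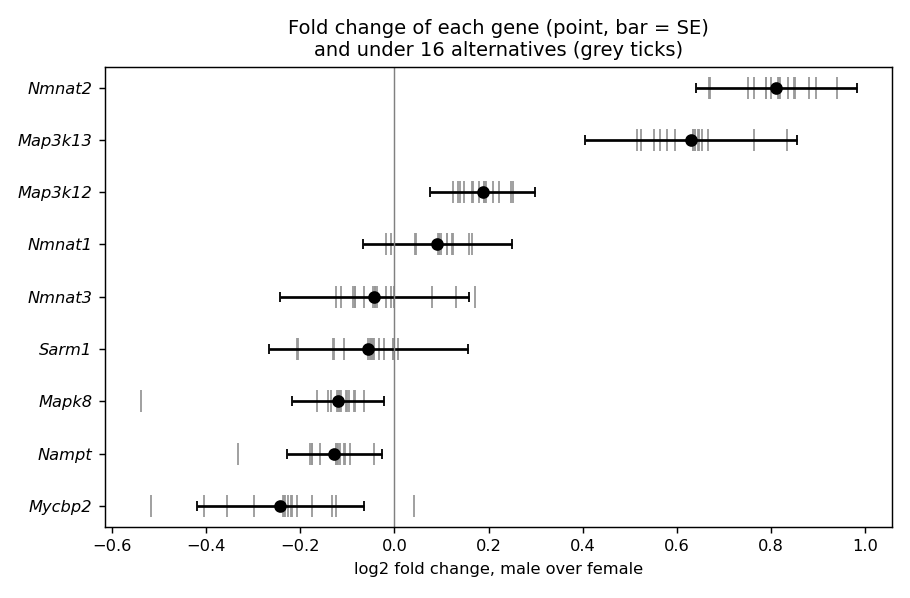
Log2 fold change, male over female, of the 9 genes (points) with its SE (bars, from 3 libraries per sex), and its value under each of 16 alternative analyses (grey ticks). Nmnat2 and Map3k13 stay above 0 in every one, while Nmnat1, Nmnat3, Sarm1 and Mycbp2 have ticks on both sides of 0.

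Nmnat2 (ENSMUSG00000042751.15, GRCm39 chromosome 1, 152830695 to 152995011, plus strand) had 13.2, 16.2 and 19.4 CPM in males 1, 2 and 3, against 9.0, 10.3 and 8.46 CPM in females 1, 2 and 3. Every male library was above every female library, and the males spread more widely, with means of 16.3 ± 3.07 CPM in males and 9.27 ± 0.965 CPM in females (SD, n = 3 each). The difference was 1.75-fold, or 0.81 ± 0.17 (SE) on the log2 scale, with an adjusted p of 0.0642 by edgeR's quasi-likelihood test. It rested on 891, 915 and 993 estimated counts in males and 461, 583 and 532 in females. The call was lost without female 1 (adjusted p = 0.228), without female 2 (0.113) and without male 3 (0.224), and it missed the threshold narrowly when changes in transcript length were allowed for (0.101).

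The coding transcript Nmnat2-201, which took 93.5% to 96.0% of the gene's counts in males and 81.6% to 95.2% in females, was also separate between the sexes. It stood at 3.55, 4.39 and 5.25 TPM (Salmon's level per transcript length) in males and at 2.34, 2.66 and 2.07 TPM in females. The short noncoding transcript Nmnat2-206, of 539 bases, had 2.57, 2.27 and 2.43 TPM in males and 1.74, 2.75 and 1.21 TPM in females, from no more than 47.0 estimated counts in any library. These levels overlapped, and this transcript held 30.5% to 42.0% of the gene's TPM in males and 35.6% to 47.5% in females with few of its counts.

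Several other neuronal transcripts also passed the test higher in males. Of 12 markers of sensory and motor axons 9 were tested and 3 passed, all higher in males: Nefl, Nefm and Nefh, which encode neurofilament subunits. Of the 9, 6 were higher and 3 lower in males by log2 fold change, the median being 0.28 and the lowest -0.65, and the other 6 did not pass. Nefl had 17.1, 22.6 and 29.0 CPM in males and 7.13, 6.99 and 12.2 CPM in females, a 2.61-fold difference with an adjusted p of 0.0571 by edgeR. The whole axon list summed to 161 to 196 CPM in males and 112 to 173 CPM in females, so its sums overlapped although those 3 genes were separate. Among the central neuron markers Syt1, a sensor for synaptic vesicle release, had 0.727, 2.22 and 2.53 CPM in males and 0.0586, 0.124 and 0.0795 CPM in females. Stmn2, another short-lived axonal protein, shown after its values were seen, had 43.6, 30.2 and 45.5 CPM in males and 26.3, 32.4 and 30.9 CPM in females, and male 2 was among the females. The part of these neuronal genes in the Nmnat2 difference was not tested. Without female 1, and likewise without male 3, 0 markers of either list passed by edgeR. Without female 2 the counts were 4 central neuron and 0 axon markers, without male 1 Nefh did not pass (adjusted p = 0.12), and without male 2 Nefm did not (0.136). The counts of central neuron and axon markers were 10 and 4 without female 3, 10 and 3 without male 1 and 10 and 5 without both. Over all genes, 2609 of 19043 passed without female 3, 643 of 19024 without male 1 and 1991 of 18786 without both.

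Markers of some cell types other than neurons also passed the test. Of 10 myelinating Schwann cell markers, all tested, 5 passed higher in males, and all 10 had positive log2 fold changes. The count was 0 without female 1 or male 3, 2 without female 2, male 1 or male 2, and 10 without female 3. Of 8 markers of nonmyelinating and repair Schwann cells, 1 passed higher in males, with 4 positive and 4 negative log2 fold changes. Of the macrophage, neutrophil, fibroblast, endothelial and adipocyte markers tested, 0 passed by edgeR. The log2 fold changes were negative for all 7 macrophage, all 7 neutrophil and all 7 adipocyte markers tested, and DESeq2 called 2, 1 and 1 of them. Without female 3, 3 macrophage, 3 adipocyte, 1 fibroblast and 1 endothelial marker passed lower in males. In that setting 2609 of 19043 genes passed. Of 8 astrocyte markers, all tested, 4 passed higher in males. The other 4 had negative log2 fold changes, the lowest being -0.31, and did not pass. The summed list was 216 to 230 CPM in males and 194 to 227 CPM in females. Aqp4, the water channel of astrocytes, had 1.45, 4.13 and 4.6 CPM in males and 0.0195, 0.0709 and 0.0318 CPM in females. Of 8 oligodendrocyte markers 7 were tested and 4 passed higher in males, with sums of 1542 to 1928 CPM in males and 657 to 949 CPM in females. Most of these sums came from Mal, which Schwann cells also express. Mobp, a protein of central myelin, had 6.32, 18.4 and 19.4 CPM in males and 0.449, 0.709 and 0.620 CPM in females, so that male 1 was the lowest male for both Aqp4 and Mobp, as for Nmnat2. Of 10 skeletal muscle markers 9 were tested and 4 passed lower in males, with sums of 8.47 to 544 CPM in males and 38.4 to 487 CPM in females. DESeq2 called 4 and limma-voom 0 of the muscle markers. The part of these cell types in the Nmnat2 difference was not tested. Without female 1, 0 markers of the astrocyte, oligodendrocyte and muscle lists passed by edgeR. Without male 3 the counts were 2 astrocyte, 1 oligodendrocyte and 0 muscle markers. The muscle count was 2 when female 2, male 1 or male 2 was left out, and the oligodendrocyte count was 2 when female 2 was.

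**Figure D3:**
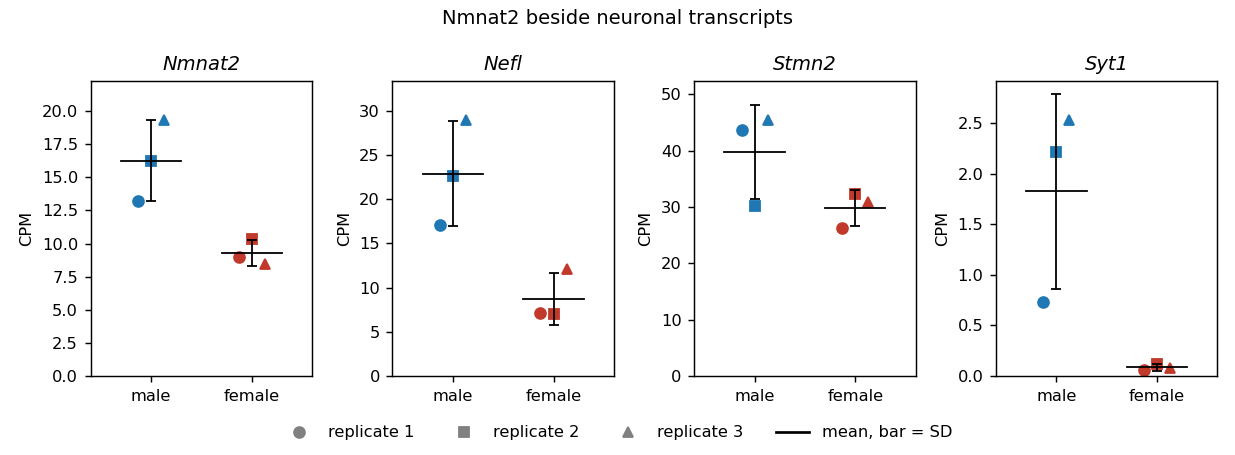
CPM of Nmnat2 and of the neuronal genes Nefl, Stmn2 and Syt1 in each male (blue, left) and female (red, right) library, each panel on its own axis from 0, with the mean as a line and the SD as a bar (n = 3 libraries per sex). All male points lie above all female points for Nmnat2, Nefl and Syt1, while male 2 lies among the females for Stmn2.

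The other NAD synthases did not pass the test. Nmnat1 (ENSMUSG00000028992.14, chromosome 4, 149552026 to 149569680, minus strand) had 7.69, 7.53 and 6.49 CPM in males and 7.13, 5.87 and 7.40 CPM in females. Nmnat3 (ENSMUSG00000032456.14, chromosome 9, 98169483 to 98302816, plus strand) had 3.89, 5.96 and 5.81 CPM in males and 5.08, 5.37 and 5.66 CPM in females. The sexes overlapped for both genes, male 1 being the lowest library for Nmnat3. The log2 differences were 0.09 ± 0.16 for Nmnat1 and -0.04 ± 0.20 for Nmnat3 (SE, adjusted p = 0.783 and 0.925 by edgeR).

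Within the family, Nmnat2 made up 43.2%, 41.9% and 47.6% of the summed Nmnat1, Nmnat2 and Nmnat3 TPM in males and 32.4%, 40.1% and 28.7% in females. Each male share was above each female share, with an exact two-sided permutation p of 0.1, the smallest that 3 against 3 libraries can give. The noncoding Nmnat2-206, with 30.5% to 42.0% of Nmnat2 TPM in males and 35.6% to 47.5% in females, entered these shares. Shares of the coding transcripts alone were not taken. Nmnat1 took 31.3% ± 4.82 in males and 38.2% ± 5.54 in females, and Nmnat3 took 24.4% ± 3.38 in males and 28.1% ± 2.67 in females (SD, n = 3 each, exact permutation p = 0.2 and 0.3).

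Sarm1 (ENSMUSG00000050132.14, chromosome 11, 78361100 to 78388641, minus strand) was among the lowest of the 9 genes, and its sex difference did not pass the test. It had 1.83, 1.61 and 1.54 CPM in males and 1.76, 1.88 and 1.54 CPM in females, from 79 to 123 estimated counts in males and 90 to 106 in females. The ranges overlapped throughout, and the log2 difference was -0.06 ± 0.21 (SE, adjusted p = 0.905 by edgeR). Sarm1 overlaps Slc46a1 on the opposite strand, as Nmnat1 does Lzic and Tmem274 and Map3k12 does Pcbp2, Gm10337 and Tarbp2, and Mycbp2 overlaps Gm62004 on its own strand. The library kit was stranded, but whether the counting used strand is not given in the sources used here.

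Because the NMNAT2 protein restrains SARM1, the RNA level of the one was set against that of the other in each library. The ratio of Nmnat2 to Sarm1 TPM was 8.00, 9.10 and 14.3 in males and 5.93, 5.31 and 5.29 in females. All 3 male ratios were above all 3 female ratios, with male 3 far above the rest, and the means were 10.5 ± 3.36 in males and 5.51 ± 0.36 in females (SD, n = 3 each). The log2 difference of 0.88, or 1.84-fold, had an exact two-sided permutation p of 0.1, again the smallest possible. The ratio shares its numerator with the Nmnat2 result above and is not separate evidence. Noncoding transcripts entered both levels. Sarm1-204, which has no coding bases, held 58.9%, 58.9% and 0% of Sarm1 TPM in males and 31.2%, 0% and 64.2% in females. Sarm1-203, also noncoding, held 46.7% in female 2 from 8.2 estimated counts. A ratio of the coding transcripts alone was not taken, so how far these transcripts set the order of the libraries was not tested.

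**Figure D4:**
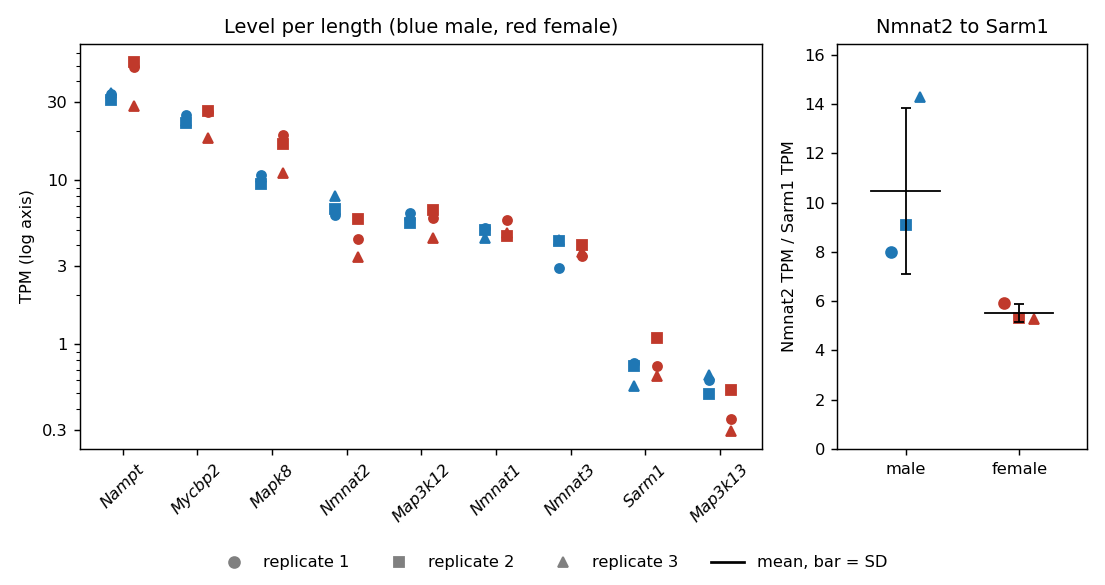
Left, TPM of the 9 genes in each library on a log axis, males in blue and females in red, ordered by level in males; right, the ratio of Nmnat2 to Sarm1 TPM with mean and SD (n = 3 libraries per sex). Nampt and Mycbp2 lead and Sarm1 and Map3k13 are lowest, and the male ratios (8.00 to 14.3) lie above the female ratios (5.29 to 5.93).

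Compared per length, the 9 genes covered a wide range. In males Nampt averaged 32.8 TPM, Mycbp2 23.3, Mapk8 10.3, Nmnat2 6.92, Map3k12 5.98, Nmnat1 4.85, Nmnat3 3.83, Sarm1 0.685 and Map3k13 0.584 TPM. Of the neighbours in this order, the male libraries of Nmnat2 and Map3k12 overlapped, as did those of Sarm1 and Map3k13. In females Nampt averaged 43.2 TPM, Mycbp2 23.6, Mapk8 15.6, Map3k12 5.65, Nmnat1 5.03, Nmnat2 4.52, Nmnat3 3.71, Sarm1 0.824 and Map3k13 0.391 TPM. There Nmnat2 stood below Nmnat1, and Map3k12 overlapped with Nmnat1, Nmnat1 with Nmnat2 and Nmnat2 with Nmnat3, as did Mycbp2 with Mapk8.

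Nampt (ENSMUSG00000020572.9, chromosome 12, 32869544 to 32903368, plus strand), the rate-limiting enzyme of NAD salvage, had 81.9, 84.2 and 81.4 CPM in males and 86.5, 101 and 83.2 CPM in females. The males lay close together with female 3 among them, and the log2 difference was -0.13 ± 0.10 (SE, adjusted p = 0.514 by edgeR). With changes in transcript length allowed for it was -0.33 and also missed the threshold (adjusted p = 0.263). Neutrophil markers, whose cells are rich in Nampt, summed to 288 to 908 CPM in males and 309 to 1002 CPM in females, and adipocyte markers to 53.2 to 283 CPM in males and 87.1 to 634 CPM in females, and their part in the Nampt values was not tested.

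Among 22 other genes of NAD synthesis 18 were tested and 0 passed by edgeR, with 1 at an unadjusted p under 0.05. DESeq2's Wald test called 1 and limma-voom 0. The gene nearest to the threshold was Naprt, which makes NAD precursor from nicotinic acid, with 21.9, 17.8 and 21.8 CPM in males and 13.8, 14.7 and 16.3 CPM in females. Its libraries did not overlap, and its log2 difference of 0.46 ± 0.13 (SE) had an adjusted p of 0.12 by edgeR. The median log2 fold change of this list was -0.03, as for all genes tested. Without female 3, and likewise without male 2, 1 gene passed.

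Enzymes that consume NAD, namely CD38, BST1, the PARP family and the sirtuins, were tested for 18 of 18 genes, and 0 passed by edgeR, with 2 at an unadjusted p under 0.05. DESeq2 called 1 and limma-voom 0. Parp14, an ADP-ribosyltransferase linked to inflammation, had 120, 117 and 95.8 CPM in males and 132, 162 and 152 CPM in females, so that every male was below every female (log2 difference -0.42 ± 0.13, SE, adjusted p = 0.135 by edgeR). Sirt2, a deacetylase abundant in myelinating glia, had 476, 450 and 504 CPM in males and 346, 338 and 428 CPM in females, with an adjusted p of 0.187. The list had 15 negative and 3 positive log2 fold changes and a median of -0.14. Without female 3, 4 genes of the list passed, 1 higher and 3 lower in males, and without male 2, 1 passed, lower in males. Over all genes, 2609 of 19043 passed without female 3 and 758 of 18842 without male 2.

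Of the injury kinases, Map3k13 (ENSMUSG00000033618.8, chromosome 16, 21613096 to 21752189, plus strand) had 3.99, 3.28 and 4.17 CPM in males and 2.09, 3.12 and 2.18 CPM in females. The groups did not overlap, although male 2 and female 2 were close, and the log2 difference of 0.63 ± 0.23 (SE) had an adjusted p of 0.176 by edgeR. Map3k12 (ENSMUSG00000023050.10, chromosome 15, 102406017 to 102427148, minus strand) had 19.8, 18.4 and 19.6 CPM in males and 16.5, 18.3 and 15.9 CPM in females. The lowest male was only just above the highest female, and the log2 difference was 0.19 ± 0.11 (SE, adjusted p = 0.377).

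Mapk8 (ENSMUSG00000021936.15, chromosome 14, 33099855 to 33169157, minus strand) had 22.9, 24.0 and 23.7 CPM in males and 24.8, 25.1 and 26.7 CPM in females. All males were below all females, but by little (log2 difference -0.12 ± 0.10, SE, adjusted p = 0.524 by edgeR). With changes in transcript length allowed for, the log2 difference was -0.54, with an adjusted p of 0.114. This shift came with the transcripts to which reads were assigned: the mean effective length of Mapk8 was 2817, 3391 and 3114 bases in males and 1882, 2215 and 2895 bases in females.

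Mapk8 carries a pair of alternative coding exons of 72 bases each, which encode a stretch of the kinase domain, and its transcripts use one or the other. They are shown because Mapk8-203 and Mapk8-205, whose shares of TPM did not overlap between the sexes, hold different ones. Neither share passed (exact permutation, adjusted p = 0.433). That of Mapk8-205 was separate only narrowly, at 38.9% in male 1 against 38.7% in female 3, and overlapped by counts. Mapk8-201, with the same exon as Mapk8-203, overlapped, with means of 47.8% in males and 41.8% in females. Capitals mark the 27 positions at which the exons differ, the other 45 bases (62.5%) being identical. The exon of Mapk8-205 is at chr14:33112630-33112701 and that of Mapk8-201 and Mapk8-203 at chr14:33112199-33112270 (GRCm39, both read 5′ to 3′ on the minus strand).
Exon of Mapk8-205: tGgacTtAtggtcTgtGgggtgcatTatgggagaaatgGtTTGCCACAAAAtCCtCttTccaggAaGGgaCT
Exon of Mapk8-201 and Mapk8-203: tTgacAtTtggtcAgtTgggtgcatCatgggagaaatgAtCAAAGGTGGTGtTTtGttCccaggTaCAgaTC

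Mapk8-203, annotated with a last exon of only 155 bases, held 2.6%, 0% and 0% of the gene's TPM in males and 20.8%, 15.1% and 9.1% in females. Every female library was above every male library, and the estimated counts were 16.5, 0 and 0 in males against 150, 110 and 60.8 in females, the zeros being Salmon's estimates. Mapk8-205 had 4.20, 4.46 and 4.96 TPM in males and 4.65, 4.58 and 4.26 TPM in females, and Mapk8-201 had 5.51, 4.63 and 4.58 TPM in males and 7.34, 7.01 and 4.93 TPM in females. The levels of both overlapped between the sexes. The transcripts also differ outside the exon pair (the last exon has 4427 bases in Mapk8-205 and 1271 in Mapk8-201), so the shares are not a measure of that exon alone.

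Over the 9 genes, 26 transcript shares of at least 5% were compared, and 6 did not overlap between the sexes, against 18.1% of such shares over all genes. The smallest exact permutation p was 0.1 and the smallest adjusted p over the 26 shares was 0.433, so none passed. For 4 transcripts the shares were separate both by TPM and by counts: Mapk8-203, Map3k12-203, Nmnat1-201 and Nmnat1-203. Of these, Map3k12-203 was near the floor, with 0, 0 and 3.1 estimated counts in males and 6.6, 4.2 and 6.0 in females. Nmnat1-203, with a shortened coding region of 447 bases, held 50.7%, 52.7% and 48.5% of Nmnat1 TPM in males and 32.2%, 41.0% and 42.9% in females. Nmnat1-201, with the full coding region of 855 bases, held 49.3%, 47.3% and 48.7% in males and 59.2%, 58.0% and 53.1% in females. The 2 shares of Nmnat1 are parts of 1 whole and move against each other by construction.

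**Figure D5:**
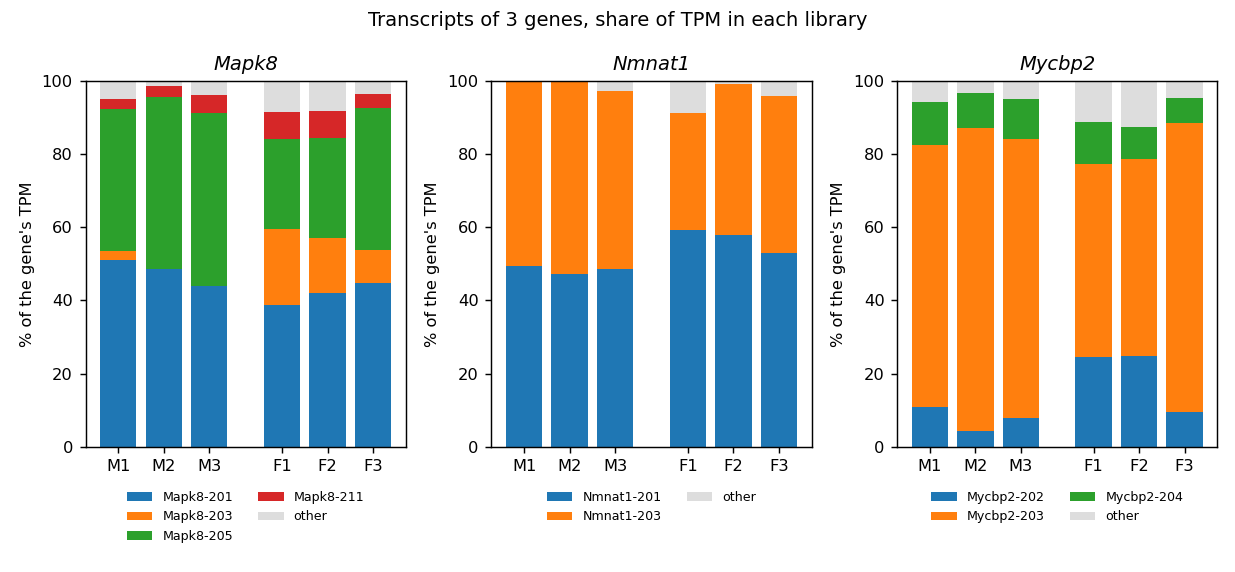
Share of the TPM of Mapk8, Nmnat1 and Mycbp2, in percent, held by each transcript of at least 5% in a sex mean, stacked to 100 with the rest in grey, for males 1 to 3 (M) and females 1 to 3 (F). Mapk8-203 takes 9.1% to 20.8% in females and at most 2.6% in males, and the Mycbp2 bars of female 3 resemble those of the males more than those of females 1 and 2.

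Of 25 other genes of the DLK and JNK cascade all 25 were tested, and 3 passed, all higher in males, with a list median of 0.08. Mapk8ip1 (JIP1), a scaffold that holds JNK and its kinases together, had 378, 361 and 466 CPM in males and 216, 251 and 253 CPM in females (1.67-fold, adjusted p = 0.0511 by edgeR). Mapk10, which encodes the neuronal JNK3, had 2.66, 3.10 and 4.48 CPM in males and 1.29, 1.52 and 1.64 CPM in females (2.29-fold, adjusted p = 0.0666). Mapk8ip2 (JIP2), a related scaffold, had 9.39, 8.61 and 11.1 CPM in males and 5.98, 5.32 and 6.98 CPM in females (1.59-fold, adjusted p = 0.0933). No male library overlapped with a female one for any of the 3. The count was 0 without female 1, without female 2 and without male 3. It was 2 without male 1 and without male 2, when Mapk8ip2 did not pass (adjusted p = 0.164 and 0.105 by edgeR). Without female 3 it was 6, with 5 higher and 1 lower in males, against 2609 of 19043 over all genes.

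Mycbp2 (ENSMUSG00000033004.17, chromosome 14, 103350847 to 103584277, minus strand) had 117, 89.6 and 98.6 CPM in males and 132, 138 and 91.2 CPM in females. Females 1 and 2 were above all males and female 3 was among them, and the log2 difference was -0.24 ± 0.18 (SE, adjusted p = 0.473 by edgeR). Without female 3 and male 1, the log2 difference was -0.52 and passed the threshold (adjusted p = 0.0737 by edgeR), as did 1991 of 18786 genes in all. With changes in transcript length allowed for, the log2 difference was 0.04 and did not pass (adjusted p = 0.865 by edgeR). Female 3 also differed from females 1 and 2 in its transcripts: Mycbp2-203, which covers the 3′ part of the gene in 28 exons, held 71.7%, 82.9% and 76.4% of Mycbp2 TPM in males and 52.6%, 53.9% and 79.0% in females. The transcript of 83 exons, Mycbp2-202, held 11.0%, 4.3% and 7.9% in males and 24.6%, 24.8% and 9.5% in females.

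The partners of MYCBP2 in the ligase, Fbxo45 and Skp1, named here for that role after their values were seen, had log2 differences of 0.22 and 0.39 and did not pass (adjusted p = 0.329 and 0.207 by edgeR). They belong to a list of 6 genes of the ligase and of other proteins that axons carry, all tested, of which 1 passed higher in males, with a list median of 0.40. That gene was Sncg (gamma-synuclein), abundant in sensory and motor neurons, with 378, 347 and 411 CPM in males and 231, 233 and 252 CPM in females. Its lowest male was well above its highest female (1.59-fold, adjusted p = 0.0443). The call was lost without female 1, female 2 or male 3, when the count was 0, and the count was 3 without female 3 and 2 without male 2. The summed myelinating Schwann cell markers given above were also higher in each male than in each female, and their part in these differences was not tested.

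Of 23 genes of axon breakdown and survival, all tested, 1 passed higher and 1 lower in males, with a list median of -0.04. Cntf, a neurotrophic factor that myelinating Schwann cells hold, had 634, 475 and 729 CPM in males and 203, 286 and 189 CPM in females. Every male was above every female (2.71-fold, adjusted p = 0.0357 by edgeR). Without female 1 and without male 3, 0 genes of the list passed by edgeR, and without female 2, 1 passed, higher in males. Without female 3, 2 passed higher and 4 lower in males.

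The genes whose level followed Nmnat2 most closely over the 6 libraries were Sucnr1 (Pearson r = 0.998 on log2 CPM), Pnck (0.995) and Zic1 (0.994). Those closest to Sarm1 were Cth (0.985), E2f7 (0.978) and Spc25 (0.974). With 6 libraries and 18396 genes searched, such values are a description of these libraries, which also differ in depth and sex.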

How the data were processed

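Polyadenylated RNA of 6 pools of 2 mice was sequenced from stranded libraries. The submitters' processing notes name Trimmomatic 0.39, Salmon 1.5.2 and MultiQC 1.9. The authors deposited, per transcript, Salmon's estimated count, which is not normalised, its TPM, scaled for length to the same total per library, and an effective length. The study states a GENCODE release on GRCm39, and positions, exon structures and sequences come from release M39 of that assembly. Gene identifiers carry the versions of the deposited data. Some transcripts are longer in M39 than as quantified, such as Sarm1-201 (7161 against 4083 bases) and Nmnat1-201 (2253 against 1238 bases). Salmon splits reads among similar transcripts, so transcript shares are model estimates.

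Counts and TPM were summed per symbol. In R 4.3.3, rounded counts were filtered with filterByExpr, normalised by TMM and tested by the quasi-likelihood F test of edgeR 4.0.16 with sex as the only term and Benjamini-Hochberg adjustment over 18396 genes. The SE was the log2 fold change divided by the square root of F. Ratios and shares were compared by exact two-sided permutation. Likeness used log2(CPM + 0.1). No library was a copy of another (chi-square per degree of freedom 48.7 to 146.7). Alternatives included DESeq2 1.42.0, limma-voom (limma 3.58.1), other scalings and filters, a transcript-length offset, a replicate block and leaving out libraries. The test was tested on simulated data. The members and lists were chosen with earlier results of these data known. Beyond the 9 genes, up to 4 passing genes by smallest p, or else the nearest 2, were eligible for naming per pathway list, up to 3 per marker list, and for Nmnat2 and Sarm1 the 3 protein-coding genes most like each. Some results that the rule would name are not reported here.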

Additional observations from a re-analysis of the deposited data

How the results depend on the processing

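Nmnat2 was higher in males under all 16 alternatives (log2 difference 0.67 to 0.94, adjusted p 0.00107 to 0.228) and past the threshold in 11. Map3k13 was higher in males under all and past it in 0 (adjusted p 0.101 to 0.456, lowest by DESeq2). The replicate numbers did not pair the samples (correlations of deviations -0.04, -0.30 and -0.30, with no library closest to its own number). With the replicate block, 56 genes passed, 0 of the 9 genes among them (Nmnat2 adjusted p = 0.161). For the ratio of Nmnat2 to Sarm1 the block cannot change the log2 difference of 0.88. Its exact sign-flip p of 0.25 is the smallest that 3 pairs can give, so this setting says nothing of how firm the ratio is. Of all genes, 975 passed in edgeR, 1614 without the filter, 2432 by DESeq2 and 1991 without female 3 and male 1. Leaving out each library gave 1 to 2609, namely 1 without female 1, 325 without female 2, 2609 without female 3, 643 without male 1, 758 without male 2 and 7 without male 3. Of the 9 genes, 0 passed with the transcript-length offset, 2 without female 3 and male 1 and 0 to 1 with each library left out. The transcript shares that did not overlap numbered 6 to 13 with each library left out. The log2 difference of the ratio was 0.63 to 1.05 with each library left out.

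Genes near no difference changed sign: Nmnat1 was at -0.018 and Nmnat3 at 0.079 with the length offset, Nmnat3 at 0.17 without female 3 and male 1, and Mycbp2 at 0.041 with the offset. With each library left out, Sarm1 ranged over -0.13 to 0.0075, Nmnat1 over -0.0069 to 0.16 and Nmnat3 over -0.13 to 0.13. Of 29 other named genes, over all alternatives, 369 values were on the same side of the threshold, 85 fell short of it, 6 newly passed and 0 changed sign. The causes were not tested. Sarm1 rested on 79 to 123 estimated counts in males and 90 to 106 in females.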
